A study of Mus musculus with 50 samples.

Results

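Collagens are the triple-helical proteins that make up most of the extracellular matrix. The family studied here comprised the 44 genes, of 52636 in the count table, whose Ensembl identifier maps to a mouse symbol of the pattern Col, number, a, number, such as Col6a3. They were sorted into 9 classes by textbook assignment: 11 fibrillar genes, 6 basement membrane genes (the chains of collagen IV), 6 beaded filament genes (collagen VI), 9 FACIT genes (fibril-associated collagens with interrupted helices), 4 transmembrane genes, 3 short-chain network genes, 2 multiplexins, 1 anchoring fibril gene and 2 others. All 44 were counted in at least 1 library.

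Fibrillar collagens such as collagens I and III are secreted by fibroblasts as procollagens, trimmed, and cross-linked into fibres that bear tension. Collagen IV assembles into sheets under epithelia and around vessels, and in the thyroid it lies in the basement membrane that wraps each follicle and its capillaries. Chains must be hydroxylated and folded in the endoplasmic reticulum, by prolyl and lysyl hydroxylases and the chaperone HSP47, before they can be secreted. Notch receptors and their Jagged ligands signal between neighbouring cells, including the endothelial and mural cells that share these basement membranes.

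RNA-seq was made from thyroids of male C57BL/6 mice aged 10 to 14 weeks in the sample labels and 10 to 12 weeks in the series description. Each mouse had a single intraperitoneal dose of blocking antibody. The RW groups received 40 mg/kg of an anti-ragweed isotype control, aJ1aJ2 groups 20 mg/kg each of anti-Jag1 and anti-Jag2, aN1aN2 groups 5 mg/kg of anti-Notch1 and 10 mg/kg of anti-Notch2, and the aN1aN2aN3 group the same with 20 mg/kg of anti-Notch3. RW, aJ1aJ2 and aN1aN2 were sampled at 15 hours and at 5 days, RW and aJ1aJ2 at 7 days (the first 7-day set), and aJ1aJ2 and aN1aN2aN3 at 7 days in a second set with no RW library. Every one of the 10 groups had 5 libraries. The series description also mentions daily thyroid hormone injections, and no label says which mice had them. No label says that the libraries of a group came from separate mice, and p-values then measure the spread between these libraries only.

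Libraries held 15271242 to 52835846 counts, of which 9322 to 192926 fell on collagen genes. Thyroglobulin (Tg), the defining product of the follicular cell, took 7.37 to 42.4% of counts in the libraries outside the second set, except RW replicate 3 (0.45%) and aJ1aJ2 replicate 3 (2.39%) at 5 days. In the second set it took 1.15 to 2.82% in aJ1aJ2 and 3.73 to 6.50% in aN1aN2aN3, without overlap. The skeletal muscle list took 0.0384 to 12.4% of counts, highest in that same RW replicate 3 at 5 days. In 9 libraries the cartilage proteoglycan gene Acan exceeded 20 CPM (counts scaled to the size of the library), and the next highest library had 5.94. Fewer cells of a type and less RNA per cell cannot be told apart in whole tissue.

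The promoters of genes that the results turn on are shown from RefSeq, on the mouse build GRCm38.p6. The search for 3 motifs covered both strands, and a match stands in capitals. They were the letters TATAAA of the box found near many start sites, the letters CCAAT bound by the factor NF-Y, and the core GTGGGAA of the site bound by the Notch effector RBPJ. Most members were lower under aJ1aJ2 at 5 days, and only Col6a3 passed edgeR's adjusted test there. Its 250 bases upstream of the transcription start lie at chr1:90843972-90844221 on the minus strand and hold none of the 3 motifs. Col3a1 had the lowest log2 fold change of the fibrillar class in that comparison, and its window at chr1:45311288-45311537 on the plus strand holds 1 match, the first of these motifs. The third sequence is the 71 bases at chr1:82586850-82586920, on the minus strand, between the opposed starts of Col4a4 and Col4a3, which both rose in the second set. It holds none of the 3 motifs.
Col6a3: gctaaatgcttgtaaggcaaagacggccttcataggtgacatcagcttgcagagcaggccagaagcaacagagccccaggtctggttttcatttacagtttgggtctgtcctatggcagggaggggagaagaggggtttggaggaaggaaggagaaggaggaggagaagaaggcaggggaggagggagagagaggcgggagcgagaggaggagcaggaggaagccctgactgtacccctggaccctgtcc
Col3a1: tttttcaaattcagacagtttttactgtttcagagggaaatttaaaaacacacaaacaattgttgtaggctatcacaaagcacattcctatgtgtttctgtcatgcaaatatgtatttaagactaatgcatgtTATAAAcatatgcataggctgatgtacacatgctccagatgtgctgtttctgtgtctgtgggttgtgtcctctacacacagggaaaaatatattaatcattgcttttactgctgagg
Col4a4 to Col4a3: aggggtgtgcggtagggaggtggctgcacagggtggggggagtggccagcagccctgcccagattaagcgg
Of the 35 members with a window in the table, 5 held the first motif, 13 the second and 2 (Col10a1 and Col4a5) the third, against 12.4%, 33.8% and 5.42% of all 32851 windows of that length. No match of 1 motif overlaps another in these 3 sequences, and a match or its lack describes these letters only.

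In the 15 RW libraries Col4a1 and Col4a2, the collagen IV chains of most basement membranes, had the highest medians of the family, and the other 4 collagen IV chains ranked from 7 to 13. Per kilobase of exon, Col4a1 had a median of 51.9 CPM (36.0 to 75.2) and its partner chain Col4a2 46.5 (29.97 to 60.3). Their ranges overlapped. Col3a1, the chain of collagen III, which runs with collagen I in pliable tissue, followed at 27.6 (8.70 to 94.0), then Col18a1 at 23.1 (4.65 to 31.4) and Col6a1 at 22.6 (11.5 to 57.1), again with overlapping ranges. The order differed between RW groups. At 7 days the medians of these 5 were 44.2 for Col4a2, 42.9 for Col4a1, 24.98 for Col18a1, 13.7 for Col6a1 and 13.1 for Col3a1, while Col3a1 was the third at 15 hours (29.3) and at 5 days (37.6). Col1a2 and Col1a1, the 2 chains of collagen I, had medians of 10.9 and 10.6. The lowest medians per kilobase were those of Col6a4 (0.00577) and Col2a1 (0.0114), the main collagen of cartilage. Per exonic base the ratio of Col4a1 to Col4a2 ran from 0.800 to 1.86 over all 50 libraries (median 1.04). The ratio of Col4a3 to Col4a4 was 0.509 to 0.805 in the 40 libraries outside the second set and 1.60 to 2.27 in the 10 of the second set, without overlap. Each antibody effect was taken within its own time and set, while the RW medians and chain ratios above span sets. Exons of 13 members overlap another gene's exons, among them Col3a1 (Gm47302, same strand), Col15a1 (Gm12426, opposite strand) and Col4a3 (C430014B12Rik, opposite strand), and their counts could hold reads of both.

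Blocking the Jagged ligands left most collagen genes lower than in RW at 15 hours, and edgeR called none of them. Of 42 members tested, 39 had a negative log2 fold change (56.1% of all genes did), and the family median was -0.47 against -0.03 for all 18513 genes. At an adjusted p under 0.05 edgeR's quasi-likelihood test called 0 members and 0.573% of all genes. At an unadjusted p under 0.05 there were 12, all lower, against 6.59% of all genes in either direction and 2.75% lower, and DESeq2 called 3. Shares of all genes are those of the main edgeR fits, here and below, and counts from other settings stand without such a share. The 2 members that were not tested for low counts were Col6a4 and Col19a1. The lower values ran through the fibrillar class (11 of 11, median -0.76), the beaded filaments (5 of 5, -0.65) and the FACIT class (8 of 8, -0.48), while the basement membrane class had 4 of 6 lower with a median of -0.05. Among fibrillar genes, Col2a1, Col11a1, Col11a2, Col24a1 and Col27a1 were high only in RW replicates 2 and 5, both over 20 CPM of Acan. Col27a1 had 9.81, 109, 9.76, 11.7 and 113 CPM in RW and 8.30 to 14.1 in aJ1aJ2.

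Col3a1 counted 288, 315, 286, 271 and 480.5 CPM in the RW libraries at 15 hours and 199.6, 185, 208, 252 and 124 in aJ1aJ2. All 5 aJ1aJ2 libraries lay below all 5 RW libraries. Its log2 fold change was -0.76 ± 0.27 (estimate ± standard error, as below), with an edgeR adjusted p of 0.582. Col6a1, a chain of collagen VI, had 99, 125, 97.4, 98.9 and 149 CPM in RW and 79.2, 72.6, 60.3, 94.5 and 53.4 in aJ1aJ2. Its groups did not overlap either, at -0.66 ± 0.23 (edgeR adjusted p = 0.553). With Col17a1, a hemidesmosome collagen, these were the 3 members whose groups did not overlap, all lower, against 0.762% of all genes. Col15a1, a multiplexin of vascular basement membranes, gave -0.46 ± 0.13 (edgeR adjusted p = 0.243), the lowest adjusted p of the family here. Marker lists differed too: the cartilage list was lower in 10 of 10 genes (median -4.30) and the fibroblast list in 11 of 12 (median -0.23), with none called in either. A cartilage covariate and a fit without the libraries over 20 CPM of Acan were among the other settings. Over all 26 settings for this comparison the family median stayed below 0, from -0.503 to -0.0876. The part of the fibroblast list was not tested.

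The leading members of the other classes had overlapping groups under aJ1aJ2 at 15 hours. Col4a1 had 320.0, 344, 399, 387 and 321 CPM in RW and 359, 362, 233, 429 and 332 in aJ1aJ2, at -0.05 ± 0.17. Col18a1 had 193, 108, 170.0, 193 and 87.3 in RW and 188, 133, 60.6, 219 and 133 in aJ1aJ2, at -0.04 ± 0.35. Col12a1 had 53, 55.3, 62.6, 68.8 and 46.3 in RW and 49.4, 70.1, 36.1, 54.3 and 50.9 in aJ1aJ2, at -0.14 ± 0.17. Each of these 3 had 1 aJ1aJ2 library below and 1 above all RW libraries, and none passed (edgeR adjusted p = 0.9998 for each of Col4a1, Col18a1 and Col12a1). Col7a1 had 9.75, 21.7, 16.9, 11.7 and 38.7 in RW and 12.4, 15.6, 17.1, 13.2 and 18.8 in aJ1aJ2, at -0.36 ± 0.33. Col13a1 had 13.6, 12, 4.54, 20.2 and 8.3 in aJ1aJ2, at -0.42 ± 0.39 against the RW libraries given under aN1aN2. Col28a1, which is made by glia of peripheral nerve, had 1.25, 2.28, 2.36, 1.36 and 2.5 in RW and 1.5, 1.9, 19.8, 2.35 and 1.65 in aJ1aJ2, where replicate 3 alone was high.

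At 5 days Col6a3, which encodes the longest chain of collagen VI, fell under ligand blockade. RW libraries had 105, 98.3, 214, 114 and 98.6 CPM and aJ1aJ2 libraries 32.8, 30.5, 41.8, 38 and 39.1. Every aJ1aJ2 library was below every RW library, with means of 36.4 ± 4.64 and 126 ± 49.5 CPM (SD, n = 5; edgeR model). The log2 fold change was -1.80 ± 0.29 with an edgeR adjusted p of 0.0331. It was the 1 member called of 43 tested, where 0.179% of all genes were called. The call was narrow. It was lost with the replicate block (edgeR adjusted p = 0.0942), the cartilage covariate (0.0565), a fit of the 2 groups alone (0.058) and log2(FPKM + 1), where limma gave -0.77 (adjusted p = 0.0623). Leaving out any single library kept the log2 fold change between -1.88 and -1.51, but the gene stayed past the threshold in 4 of 15 such fits, and the edgeR adjusted p ran from 0.00787 to 0.113. It was lost without any 1 aJ1aJ2 library, without RW replicates 1, 2, 4 or 5 and without aN1aN2 replicates 3 or 5.

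Most of the family had negative log2 fold changes at 5 days, and edgeR called no other member, while DESeq2 called 6 members in all and voom with sample quality weights 15. The shares of all genes called by DESeq2 and voom are not given here. Of the 43 members, 34 were lower (55.8% of all genes), with a median of -0.69 against -0.06 for all genes, and 13 had an unadjusted p under 0.05, 12 of them lower, against 11.8% of all genes in either direction and 6.02% lower. Col6a4 alone was not tested. Groups did not overlap for 7 members, all lower (Col6a3, Col3a1, Col6a1, Col6a2, Col15a1, Col8a1 and Col20a1), against 2.06% of all genes. The fibrillar class was lower in 11 of 11 (median -1.22), beaded filaments in 5 of 5 (-1.29), FACIT in 8 of 9 (-0.45), short-chain collagens in 3 of 3 (-0.71) and multiplexins in 2 of 2 (-0.66). The basement membrane class was lower in 3 of 6 (median -0.03).

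**Figure D1:**
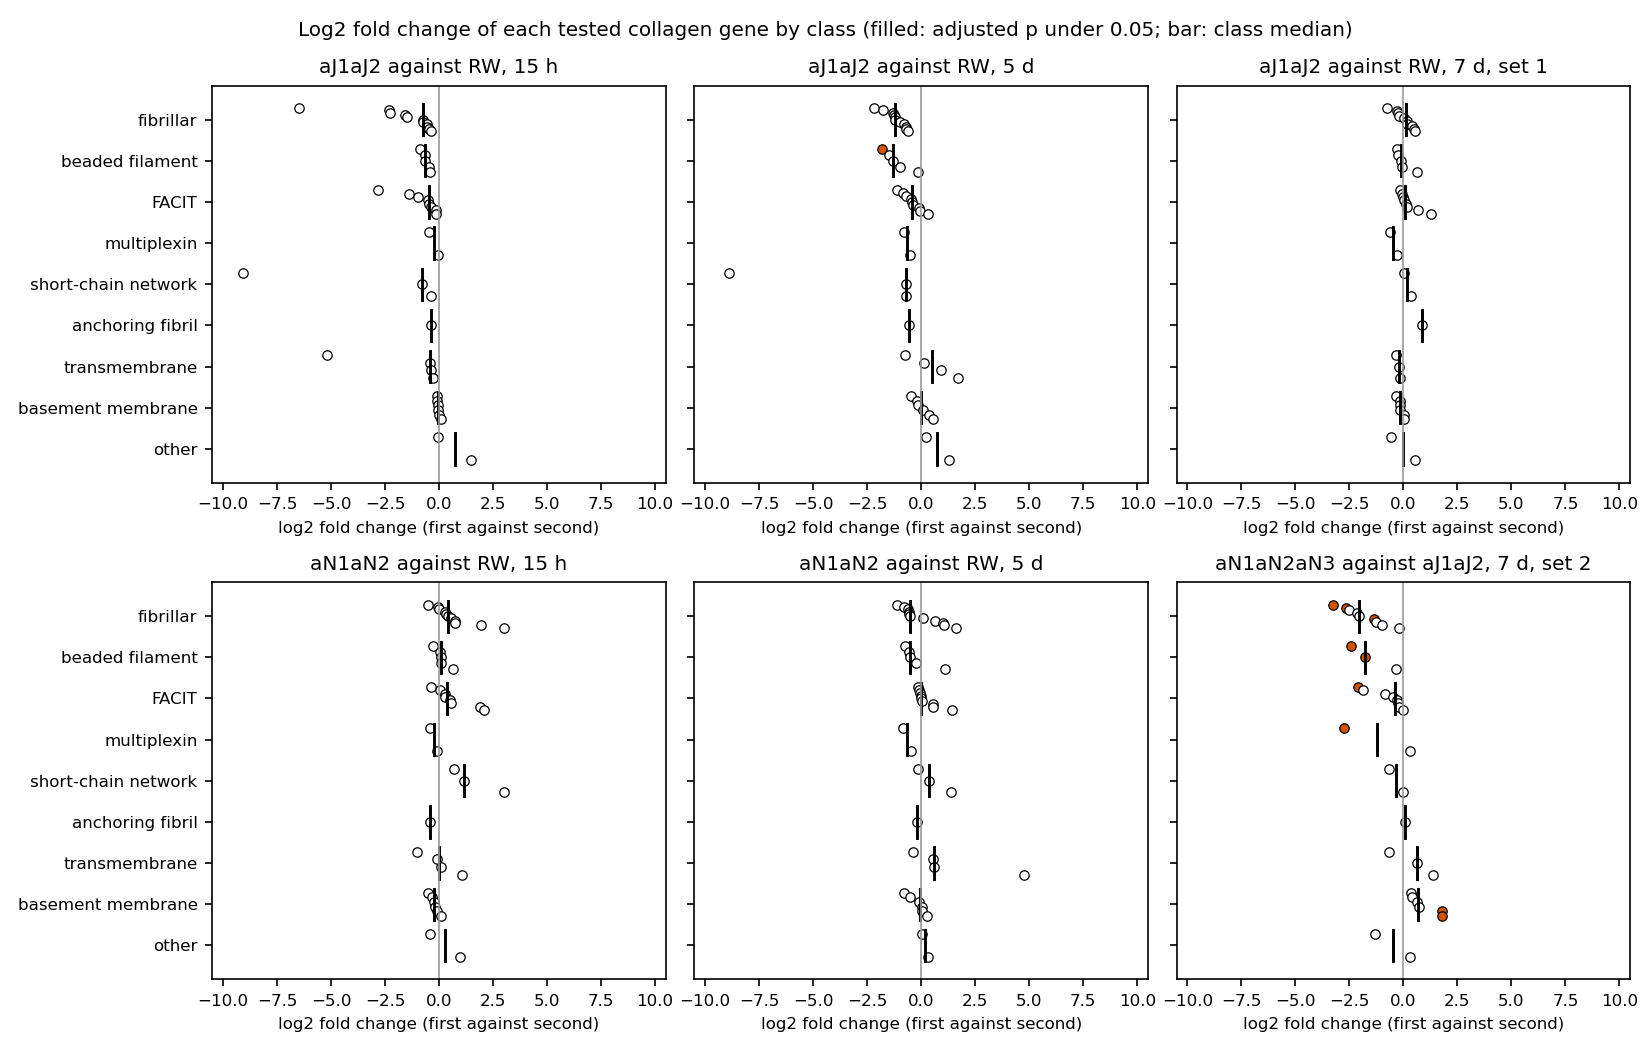
Log2 fold change (x axis) of each tested collagen gene by class (y axis) in 6 comparisons; filled points passed an edgeR adjusted p of 0.05 and the bar is the class median. Fibrillar and beaded filament genes lie left of 0 under aJ1aJ2 at 15 hours and 5 days, and in the second 7-day set they lie left while all 6 basement membrane genes lie right.

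Among fibrillar genes at 5 days, Col3a1 had 369, 248, 923, 401 and 260.2 CPM in RW and 79.1, 52.2, 174, 84.1 and 98.2 in aJ1aJ2. The groups did not overlap, with RW replicate 3 far above its group. The log2 fold change was -2.18 ± 0.50 (edgeR adjusted p = 0.113). Col1a1 and Col1a2 gave -1.33 ± 0.58 and -1.22 ± 0.50, with edgeR adjusted p-values of 0.39 and 0.356. Of the aJ1aJ2 libraries, replicate 3, the one low in Tg, had 122 CPM of Col1a1 and 224 of Col1a2, within the RW ranges (59.2 to 252 and 129 to 499), while the other 4 lay below all RW libraries (20.3 to 34.6 for Col1a1). Without that library the estimates were -2.06 for Col1a1 and -1.75 for Col1a2, and without RW replicate 3 they were -0.84 and -0.74.

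Collagen VI is a heterotrimer, and its other main chains were lower beside Col6a3. Col6a1 had 116, 102, 250.2, 127 and 105 CPM in RW and 53.1, 44.2, 70.5, 59.5 and 61.1 in aJ1aJ2, a log2 fold change of -1.29 ± 0.31 (edgeR adjusted p = 0.125). Col6a2 had 143, 152, 211, 152 and 163 in RW and 59.9, 101, 47.4, 121 and 93.6 in aJ1aJ2, at -0.97 ± 0.24 (edgeR adjusted p = 0.131). For both chains all aJ1aJ2 libraries lay below all RW libraries. The ratio of Col6a3 to Col6a1 per exonic base was 0.313 to 0.353 in RW and 0.217 to 0.253 in aJ1aJ2, without overlap.

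The vascular and network collagens were mixed. Col15a1 had 104, 91.5, 141, 104 and 109 CPM in RW and 46.6, 74.1, 31.6, 89.3 and 72.8 in aJ1aJ2, with no overlap and a log2 fold change of -0.82 ± 0.23 (edgeR adjusted p = 0.183). Col18a1, whose C-terminal fragment is endostatin, had 147, 179, 32.7, 136 and 162 in RW and 77.7, 131, 46.7, 114 and 98.1 in aJ1aJ2. RW replicate 3 was the lowest of all 10, and the log2 fold change was -0.50 ± 0.38 (edgeR adjusted p = 0.628). Col4a1 had 494, 562, 417, 442 and 538 in RW and 274, 424, 209.8, 482 and 415 in aJ1aJ2, overlapping, at -0.45 ± 0.22 (edgeR adjusted p = 0.45).

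Other class leaders overlapped between the groups. Col12a1, a FACIT collagen of fibril surfaces, had 95.9, 98.5, 29.5, 100.1 and 113 CPM in RW and 46.3, 79.3, 18.7, 95.9 and 82.8 in aJ1aJ2, with replicate 3 the lowest of each group and a log2 fold change of -0.45 ± 0.42 (edgeR adjusted p = 0.689). Col13a1, a transmembrane collagen of cell junctions, ran from 1.68 to 14.1 CPM in RW and 1.38 to 9.44 in aJ1aJ2. Replicate 3 was the lowest of each group there too. Col7a1, the anchoring fibril collagen, had 4.8, 5.19, 58.9, 6.65 and 6.19 in RW and 9.15, 8.44, 20.9, 8.29 and 7.82 in aJ1aJ2. Its log2 fold change was -0.59 ± 0.72 with both low-Tg libraries and turned to 0.57 without them. Col28a1 had 2.81, 1.75, 3.81, 2.66 and 1.75 in RW and 3.01, 2.36, 19.6, 3.58 and 2.81 in aJ1aJ2, where replicate 3 alone was high.

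Marker lists of tissues differed beside these values, with single libraries far above the rest. At 5 days the skeletal muscle list was lower in 9 of 9 genes (median -1.21), the cartilage list in 7 of 7 (-2.18) and the fibroblast list in 9 of 12 (-0.27), with none called. As a share of counts the muscle list had a median of 0.289% in RW (0.115 to 12.4%, highest in replicate 3). In aJ1aJ2 its median was 0.484% (0.166 to 8.22%). The cartilage list took 0.0556% in RW replicate 4 and 0.00186 to 0.0150% in the other RW libraries. In aJ1aJ2 it took 0.00636 to 0.00917%. The fibroblast list as a whole took 0.144 to 0.220% of counts in RW and 0.155 to 0.257% in aJ1aJ2. With the muscle list as a covariate 11 members were called, with the cartilage list 0, and without the 2 low-Tg libraries 2. The shares of all genes called in these fits are not given.

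At 7 days in the first set most collagen genes had log2 fold changes near 0. Of 39 members tested 21 were lower (48.8% of all genes), with a median of -0.06 against 0.01 for all genes. None was called by edgeR's quasi-likelihood test, as for 0% of all genes, 4 had an unadjusted p under 0.05 (11.6% of all genes), 3 of them lower (6.44%), and DESeq2 called 1 and voom with sample quality weights 3. Col6a3 had 34.9, 43.4, 55.6, 46.6 and 33.2 CPM in RW and 38.6, 35.8, 48.7, 38.5 and 40.8 in aJ1aJ2. The groups overlapped, and the log2 fold change was -0.08 ± 0.15 (edgeR adjusted p = 0.828).

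Col3a1 had the lowest log2 fold change of the family at 7 days, with 85.4, 116, 150.4, 128 and 166 CPM in RW and 67.2, 86.2, 100.2, 64.4 and 60.9 in aJ1aJ2. Only aJ1aJ2 replicates 2 and 3 reached into the RW range, and the log2 fold change was -0.77 ± 0.20 (edgeR adjusted p = 0.186). Col18a1 had 175, 182, 154, 220.3 and 154 in RW and 128, 61, 146, 118 and 122 in aJ1aJ2. It was the 1 member without overlap (1.91% of all genes were lower without overlap), at -0.63 ± 0.21 (edgeR adjusted p = 0.291). Col4a1 had 269, 319.9, 344, 396 and 269.5 in RW and 294, 232, 270.1, 238 and 232 in aJ1aJ2, at -0.34 ± 0.15 (edgeR adjusted p = 0.411). Col6a1 ranged from 50.5 to 66 in RW and 39.7 to 62.2 in aJ1aJ2, at -0.28 ± 0.14 (edgeR adjusted p = 0.458). The muscle list was higher in 9 of 9 genes (median 1.67, none called). As a share of counts it took 0.122 to 1.89% in RW and 0.312 to 7.78% in aJ1aJ2, highest in replicate 2. A fit with this list as a covariate was among the other settings, and its part in the collagen values was not tested.

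At 7 days in the first set Col12a1 had 51.9, 64.3, 58.5, 61.2 and 42.2 CPM in RW and 63, 29.4, 66.8, 64.9 and 47.2 in aJ1aJ2, at -0.04 ± 0.21. Col13a1 had 18.8, 25.1, 28.5, 29 and 34 in RW and 27.4, 8.12, 21.7, 25.9 and 23.6 in aJ1aJ2, at -0.35 ± 0.28. Both overlapped (edgeR adjusted p = 0.947 and 0.606). Col7a1 had 15, 10.1, 15.2, 12.9 and 9.66 in RW and 13.1, 65.5, 11.1, 13.3 and 12.9 in aJ1aJ2, where replicate 2 alone was high. Col28a1 had 1.54, 1.38, 1.41, 0.925 and 1.39 in RW and 1.7, 2.12, 3.4, 1.53 and 1.08 in aJ1aJ2, at 0.55 ± 0.30 (edgeR adjusted p = 0.489). Col10a1 was at 0.195 to 0.351 in RW and 0 to 0.614 in aJ1aJ2 and was not tested.

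The difference between times was itself tested for Col6a3. Its aJ1aJ2 effect was more negative at 5 days than at 15 hours by -1.34 ± 0.31 (edgeR adjusted p = 0.022), and less negative at 7 days than at 5 days by 1.68 ± 0.31 (edgeR adjusted p = 0.00761). It was the 1 of 43 members called in each, against 0.981% and 0.676% of all genes. In both, RW and aJ1aJ2 libraries at 5 days differ in deposited scaling from those at the other time. Time and processing set cannot be told apart there. For aN1aN2 no member differed between 5 days and 15 hours by an adjusted test (3.14% of all genes did). At 15 hours Col6a3 had 72.1, 89.8, 74.5, 75 and 108 CPM in RW and 68.8, 63.6, 54.9, 76.8 and 39 in aJ1aJ2, overlapping, at -0.47 ± 0.19 (edgeR adjusted p = 0.683). The first of these calls was lost without aJ1aJ2 replicate 4 at 15 hours (edgeR adjusted p = 0.0502) or aJ1aJ2 replicate 2 at 5 days (0.0501), and the second held in all 40 such fits.

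**Figure D2:**
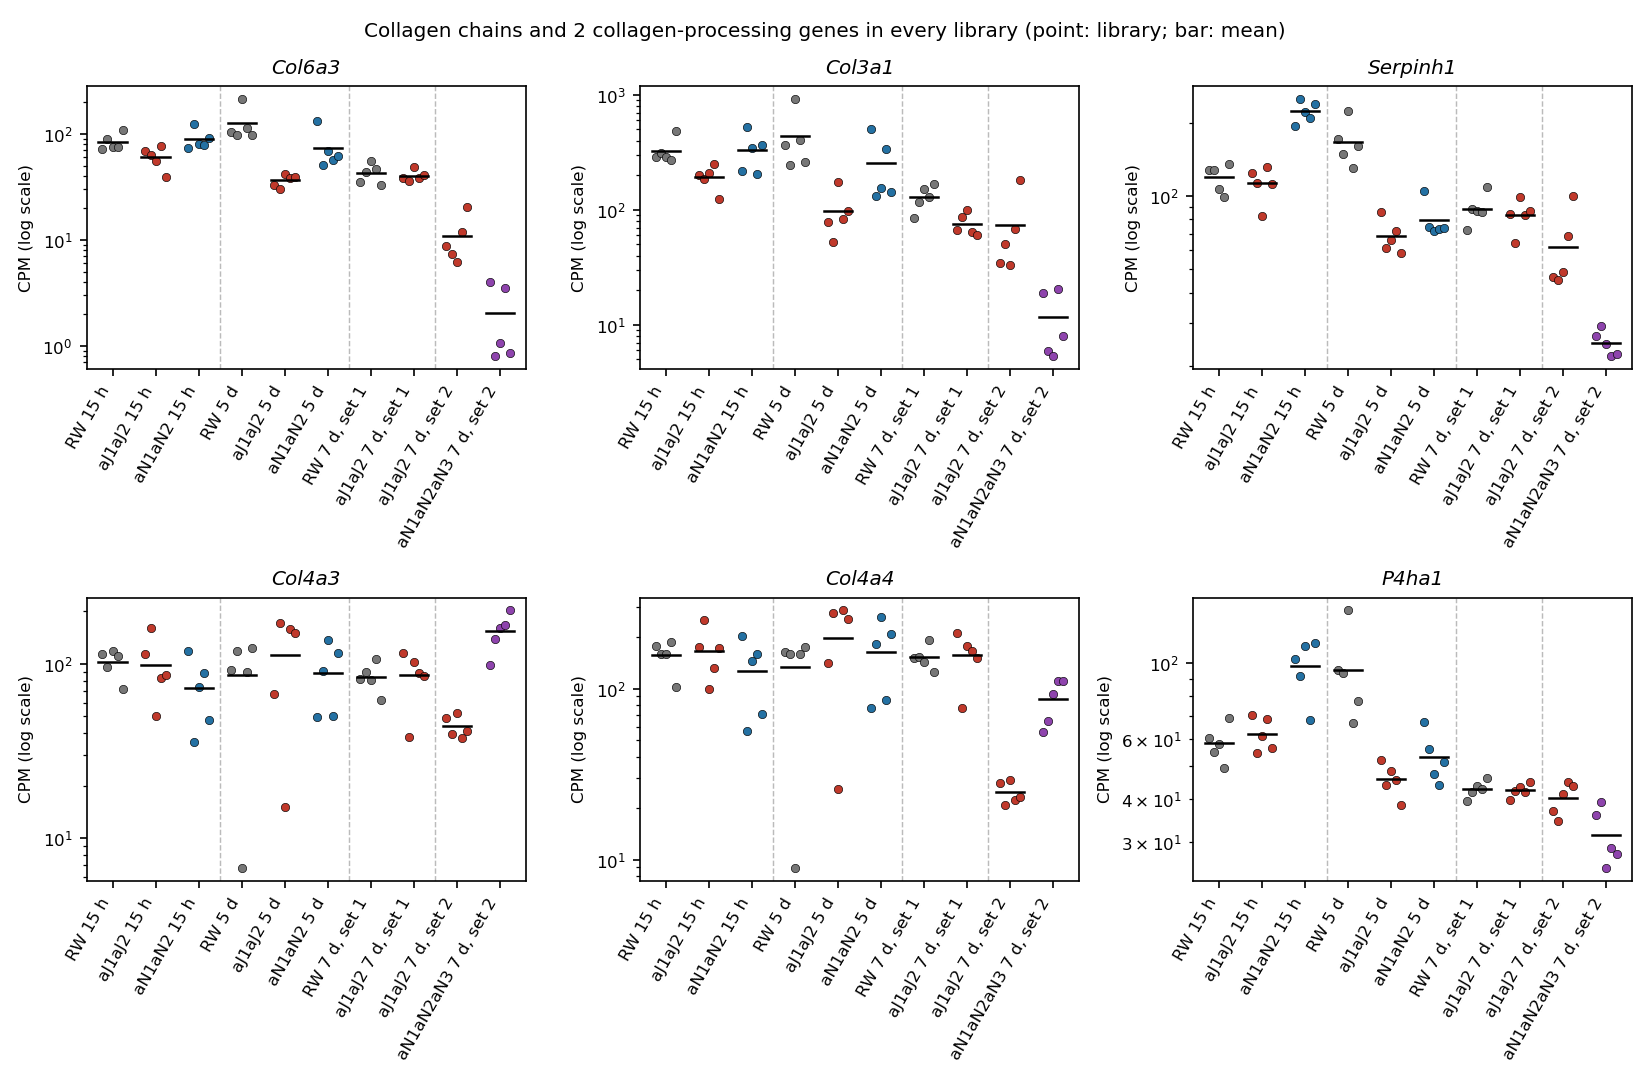
CPM (y axis, log scale) in every library (points) and group means (bars) for Col6a3, Col3a1, Col4a3, Col4a4 and the collagen-processing genes Serpinh1 and P4ha1; dashed lines separate the times and sets. Col6a3 at 5 days sits at 30.5 to 41.8 in aJ1aJ2 and 98.3 to 214 in RW, and Col4a3 in the second set at 37.5 to 52.4 in aJ1aJ2 and 98.5 to 203 in aN1aN2aN3.

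Blocking Notch1 and Notch2 called no collagen gene at 15 hours or at 5 days with edgeR's quasi-likelihood test. At 15 hours 1.68% of all genes were called, 15 of 42 members were lower (48.7% of all genes), and the family median was 0.11 against 0.01, with 3 members at an unadjusted p under 0.05 (14.4% of all genes), 2 of them lower (7.77%), and 0 called by DESeq2. Groups did not overlap for Col6a2 alone, which was lower at -0.28 ± 0.21 (2.54% of all genes). The fibrillar class had 2 of 11 lower (median 0.41) and the basement membrane class 5 of 6 (-0.23). Col13a1 had 17.3, 12.5, 21.9, 18.3 and 8.61 CPM in RW and 7.28, 4.21, 8.8, 13.1 and 4.91 in aN1aN2, overlapping, at -1.04 ± 0.39 (edgeR adjusted p = 0.23). Col3a1 had 218, 522, 343, 206 and 366 in aN1aN2, on both sides of the RW libraries. Among the other class leaders in aN1aN2 at 15 hours, Col4a1 had 428, 307, 437, 438 and 303 CPM, at 0.11 ± 0.17. Col6a1 had 72.6, 159, 104, 89.9 and 155, at 0.03 ± 0.23. Both reached above and below RW libraries. Col18a1 had 152, 67.9, 135, 149 and 66, at -0.40 ± 0.35. Col12a1 had 79.5, 67.7, 65.4, 82.5 and 54.5, at 0.29 ± 0.17. Neither passed (edgeR adjusted p = 0.65 and 0.463). Col7a1 had 10.4, 17.6, 21.9, 10.8 and 13.9, Col28a1 2.1, 9.74, 2.34, 2.29 and 2.79 and Col10a1 57.9, 1361, 15.5, 2.58 and 2623. Of these, Col10a1 was high in replicates 1, 2 and 5, the libraries high in Acan. The aN1aN2 libraries at 15 hours share their deposited scaling with the 5-day libraries and not with RW at 15 hours, so processing set and antibody cannot be told apart in this comparison.

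At 5 days the aN1aN2 group shared its RW libraries with the aJ1aJ2 comparison. None of all 18434 genes (0%) was called, 22 of 43 members were lower (58.5% of all genes), the median was -0.03 against -0.07, and 6 members had an unadjusted p under 0.05 (10% of all genes), 5 of them lower (4.38%). DESeq2 called 3 members and voom with sample quality weights 9. Groups did not overlap for 3 members, all lower (Col15a1, Col4a1 and Col6a2), against 1.14% of all genes.

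Col4a1 had 278, 259, 344, 244 and 312 CPM in aN1aN2 at 5 days, at -0.78 ± 0.22 (edgeR adjusted p = 0.23). Col15a1 had 71.4, 56.1, 66.3, 55.6 and 61.4, at -0.83 ± 0.23 (edgeR adjusted p = 0.223). Col6a2 had 134, 77.8, 128, 92.1 and 119, at -0.59 ± 0.24 (edgeR adjusted p = 0.402). For all 3, every aN1aN2 library was below every RW library.

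The remaining class leaders in aN1aN2 at 5 days overlapped RW. Col3a1 had 507, 131, 154, 336 and 144 CPM, at -0.80 ± 0.48, Col6a1 178, 61.4, 77.8, 102 and 78.5, at -0.50 ± 0.31, and Col18a1 55.9, 97.2, 111, 84.7 and 126, at -0.48 ± 0.38. None of the 3 passed (edgeR adjusted p = 0.684, 0.696 and 0.816). Col12a1 had 64, 74, 125, 52 and 91.8, at -0.12 ± 0.42, and Col13a1 3.57, 9.31, 13.2, 4.99 and 10.9, at -0.40 ± 0.55. Col7a1 had 32.7, 7.63, 7.89, 15.2 and 9.35, Col28a1 3.21, 2.29, 2.23, 5.21 and 2.92 and Col10a1 1429, 7.25, 1.14, 0.62 and 183. Replicates 1 and 5 alone were high in Col10a1.

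Col6a3 in aN1aN2 at 5 days had 134, 50.4, 68.6, 56.7 and 61.7 CPM, of which replicate 1 was above 4 of the 5 RW libraries. Against RW it gave -0.77 ± 0.28 (edgeR adjusted p = 0.345) and against aJ1aJ2 1.02 ± 0.29 (edgeR adjusted p = 0.766), where every aN1aN2 library was above every aJ1aJ2 library, as for no other member (0.277% of all genes). In that direct comparison no gene was called (0%), 10 of 43 members were lower in aN1aN2 (47.8% of all genes), the median was 0.57 against 0.01, and 10 members had an unadjusted p under 0.05, all higher, against 4.22% of all genes.

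In the second 7-day set the classes parted. Under aN1aN2aN3, set against aJ1aJ2 because no RW library exists there, 7 collagen genes fell and 2 rose of 36 tested, where 10.4% of all genes fell and 9.19% rose (19.6% in all, edgeR's quasi-likelihood test). The fibrillar class was lower in 9 of 9 (median -2.05, 3 called), beaded filaments in 3 of 3 (-1.77, 2 called) and FACIT in 8 of 8 (-0.37, 1 called). All 6 basement membrane chains were higher (median 0.67, 2 called). The family median was -0.40 against -0.07 for all genes, and 20 members had an unadjusted p under 0.05 (35.6% of all genes). In all 24 of 36 were lower (54.2% of all genes), and groups did not overlap for 7 (15% of all genes). Not tested for low counts were 8 members, among them Col10a1 and Col2a1.

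Col4a3 and Col4a4, chains of the collagen IV network found in kidney glomerular and other specialised basement membranes, rose. Col4a3 had 49.1, 39.5, 52.4, 37.5 and 41 CPM in aJ1aJ2 and 98.5, 138, 161, 167 and 203 in aN1aN2aN3. Col4a4 had 28.2, 20.8, 29.4, 22.2 and 23.1 in aJ1aJ2 and 56.1, 65, 93, 111 and 111 in aN1aN2aN3. Every aN1aN2aN3 library was above every aJ1aJ2 library for both. Their log2 fold changes were 1.77 ± 0.20 (edgeR adjusted p = 0.000583) and 1.78 ± 0.21 (edgeR adjusted p = 0.000785), from means of 43.9 ± 6.49 to 153 ± 38.4 and 24.8 ± 3.81 to 87.2 ± 25.7 CPM. These 2 genes start 71 bases apart on opposite strands, across the sequence given above. Both calls held in all 10 fits that left out 1 library. Col4a1 had 25.8, 30.2, 25.2, 59 and 69.1 in aJ1aJ2 and 46.2, 64.7, 72.8, 66.4 and 80.5 in aN1aN2aN3, overlapping, at 0.63 ± 0.29 (edgeR adjusted p = 0.149), and passed without aJ1aJ2 replicate 5 (0.034). Col4a1 and Col4a2 overlap head to head, and the strand setting of the counting is not given in the sources used here.

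In the same set 3 fibrillar genes fell. Col3a1 had 34.4, 50.2, 32.9, 67.5 and 182 CPM in aJ1aJ2 and 18.9, 5.96, 5.31, 20.6 and 7.93 in aN1aN2aN3, without overlap, at -2.67 ± 0.61 (edgeR adjusted p = 0.0149). Col5a2, which with Col5a1 seeds collagen I fibrils, had 7.01, 7.24, 6.76, 11.7 and 24.4 in aJ1aJ2 and 5.68, 3.67, 2.83, 7.05 and 3.33 in aN1aN2aN3. Its groups overlapped at 1 library, and it gave -1.36 ± 0.40 (edgeR adjusted p = 0.0336). Col27a1 had 1.3, 1.86, 1.65, 25.2 and 2.96 in aJ1aJ2 and 0.652, 1.07, 0.418, 0.427 and 0.926 in aN1aN2aN3, without overlap, at -3.26 ± 0.91 (edgeR adjusted p = 0.0324). The aJ1aJ2 replicate 4 carried most of its level, and without that library the estimate was -1.48. Just outside the threshold, edgeR adjusted p-values were 0.0501 for Col5a1, 0.0512 for Col1a1 (-2.51) and 0.0534 for Col1a2 (-2.16).

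Beside them 2 collagen VI genes and 1 of 8 tested FACIT genes fell. Col6a3 had 8.73, 7.42, 6.25, 11.9 and 20.4 CPM in aJ1aJ2 and 3.98, 0.797, 1.06, 3.51 and 0.852 in aN1aN2aN3, without overlap, at -2.44 ± 0.54 (edgeR adjusted p = 0.0109). Col6a1 had 12.3, 20.2, 11.7, 39.9 and 34.2 in aJ1aJ2 and 11.5, 3.46, 2.9, 13.4 and 4.0 in aN1aN2aN3, with overlap, at -1.77 ± 0.53 (edgeR adjusted p = 0.040). Col14a1, a FACIT collagen of fibril surfaces, had 7.01, 6.08, 5.03, 9.07 and 16.8 in aJ1aJ2 and 2.35, 0.624, 1.38, 3.17 and 2.93 in aN1aN2aN3, without overlap, at -2.10 ± 0.45 (edgeR adjusted p = 0.00901). For each, the mean of aN1aN2aN3 was below that of aJ1aJ2.

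The 2 multiplexins differed. Col15a1 had 2.51, 2.74, 3.03, 4.85 and 6.56 CPM in aJ1aJ2 and 1.27, 0.312, 0.29, 0.763 and 0.296 in aN1aN2aN3, without overlap, at -2.75 ± 0.48 (edgeR adjusted p = 0.00362). Col18a1 had 22.7, 21.8, 18.6, 22 and 44.2 in aJ1aJ2 and 32.5, 43.1, 26, 39.5 and 24.1 in aN1aN2aN3, overlapping, at 0.32 ± 0.26 (edgeR adjusted p = 0.39). The first fell and the second did not pass. The calls of Col15a1, Col14a1, Col6a3 and Col3a1 held in all 10 fits that left out 1 library. Those of Col6a1, Col27a1 and Col5a2 held in 4, 5 and 6: Col6a1 was lost without aN1aN2aN3 replicates 2, 3 or 5 or aJ1aJ2 replicates 2, 4 or 5, Col27a1 without any 1 aN1aN2aN3 library, and Col5a2 without aN1aN2aN3 replicates 2, 3 or 5 or aJ1aJ2 replicate 5.

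The other class leaders did not pass in the second set. Col12a1 had 12, 12.3, 14.6, 8.38 and 12 CPM in aJ1aJ2 and 9.85, 7.03, 9.14, 9.79 and 8.11 in aN1aN2aN3, at -0.46 ± 0.18 (edgeR adjusted p = 0.0927). Col13a1 had 4.2, 3.76, 3.34, 4.01 and 6.36 in aJ1aJ2 and 5.45, 5.06, 7.34, 8.33 and 7.81 in aN1aN2aN3, at 0.62 ± 0.23 (edgeR adjusted p = 0.0808). Their groups overlapped. Col7a1 had 1.99, 2.55, 1.14, 16.2 and 3.46 in aJ1aJ2 and 4.31, 8.14, 3.15, 6.1 and 5.33 in aN1aN2aN3, at 0.07 ± 0.64 (edgeR adjusted p = 0.95). Col28a1 had 0.782, 0.835, 0.354, 1.27 and 1.6 in aJ1aJ2 and 0.652, 0.104, 0.257, 0.458 and 0.481 in aN1aN2aN3, at -1.32 ± 0.50 (edgeR adjusted p = 0.0813). Only aJ1aJ2 replicate 4 stood high in Col7a1.

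As shares, collagen genes took 0.0547 to 0.108% of counts in aJ1aJ2 and 0.0666 to 0.103% in aN1aN2aN3 of the second set. Within them the fibrillar class took 21.0 to 46.9% in aJ1aJ2 and 3.99 to 12.9% in aN1aN2aN3, and the basement membrane class 26.1 to 47.5% and 59.9 to 77.6%. Neither pair overlapped. The fibroblast list was lower in 11 of 12 genes with 6 called (median -1.11), the adipose list in 6 of 6 with 3 called, and the muscle list in 9 of 9 with none called (-1.64). Of all genes, 10.4% were called lower and 9.19% higher. As a share of counts the fibroblast list overlapped, at 0.184 to 0.601% in aJ1aJ2 and 0.188 to 0.473% in aN1aN2aN3. Of the gland cell lists, 2 took higher shares in aN1aN2aN3. The parathyroid list did not, at 0.0154 to 7.72% in aJ1aJ2 and 1.08 to 4.40% in aN1aN2aN3, overlapping. The thyroid follicular list, which includes Tg, took 1.26 to 3.05% in aJ1aJ2 and 3.92 to 6.82% in aN1aN2aN3, and the list for C cells, the calcitonin cells of the thyroid, 0.654 to 2.51% and 2.91 to 4.58%, both without overlap. By gene, 2 follicular genes rose and 1 fell of 10 tested (median 0.0031), and 1 of 5 C cell genes rose (median 0.71). Counts this small are hard to tell from the shares of all genes. The part of these cell types in the collagen values was not tested. Without the 2 aJ1aJ2 libraries over 3% of muscle counts, 13 members were called, while Col6a1 (-1.05, edgeR adjusted p = 0.174) and Col5a2 (-0.63, 0.116) were not. Col3a1 gave -1.73 and Col27a1 -1.19 there, and both stayed called. The share of all genes called in that fit is not given here.

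**Figure D3:**
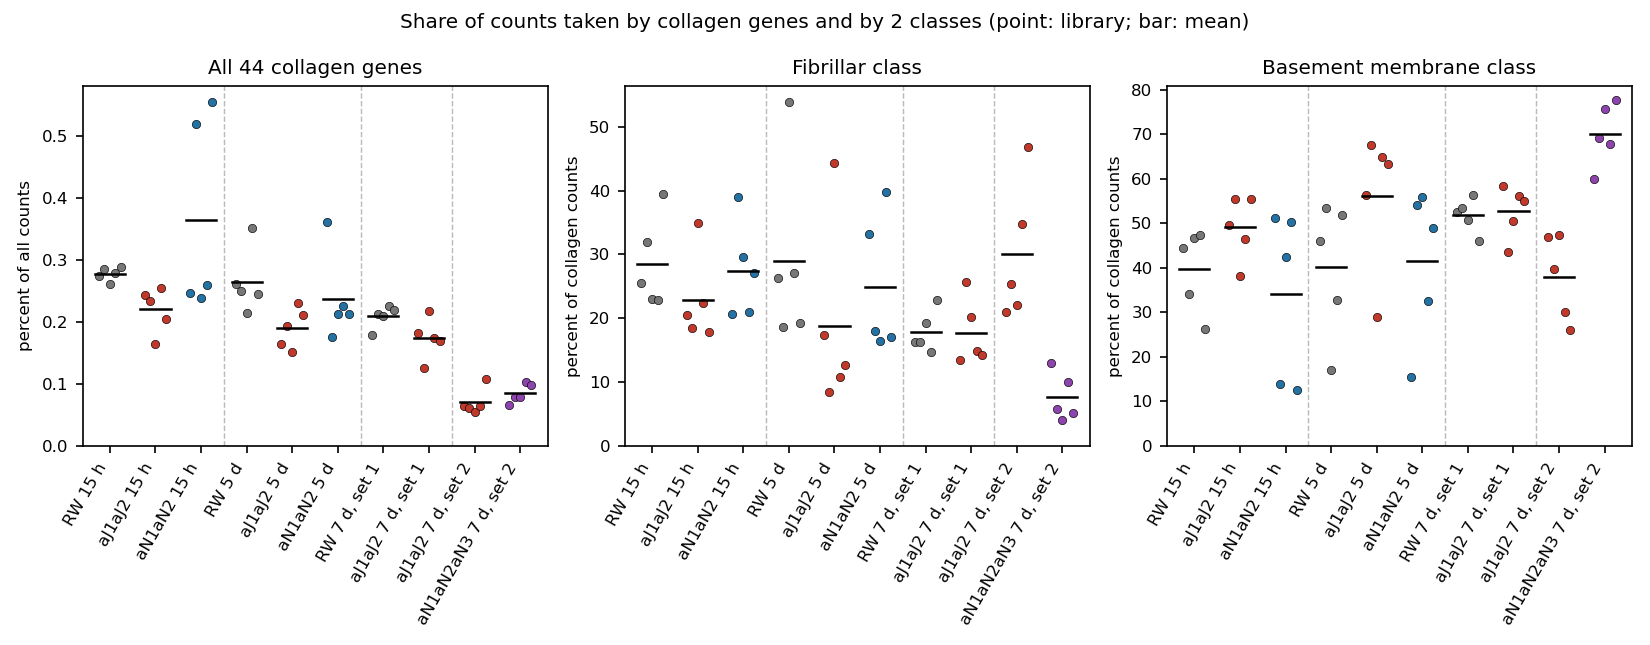
Percent of all counts on the 44 collagen genes, and percent of collagen counts on the fibrillar and basement membrane classes, in every library (points) with group means (bars). In the second set the fibrillar share is 21.0 to 46.9% in aJ1aJ2 and 3.99 to 12.9% in aN1aN2aN3, and the basement membrane share is 26.1 to 47.5% and 59.9 to 77.6%.

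Several members were high in the libraries that were high in Acan. Col10a1, the collagen of hypertrophic cartilage, had 34.2 to 2623 CPM in the 9 libraries with over 20 CPM of Acan and 0 to 15.5 in the other 41. Col11a1, which joins collagen II in cartilage fibrils, had 11.5 to 201 and 2.60 to 8.97. For both, those 9 were the highest libraries of all 50, and for Col27a1, Col2a1 and Col9a2 8 of the 9 highest were among them. The 9 libraries were 2 RW and 3 aN1aN2 libraries at 15 hours, 1 RW and 2 aN1aN2 libraries at 5 days and 1 aJ1aJ2 library of the second set.

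Col10a1 had 0.0917, 242, 1.34, 0.581 and 262 CPM in RW and 0.225, 0, 0.412, 0.246 and 0.0752 in aJ1aJ2 at 15 hours, a log2 fold change of -9.09 ± 2.60 (edgeR adjusted p = 0.281). At 5 days it had 0.46, 0.15, 12, 629 and 0.326 in RW and 0.124, 0.0605, 1.06, 0 and 0.0878 in aJ1aJ2, at -8.91 ± 3.00 (edgeR adjusted p = 0.254). RW replicates 2 and 5 at 15 hours and 4 at 5 days held most of its counts. Without RW replicate 4 the 5-day estimate was -3.61 (edgeR adjusted p = 0.51), and without the libraries over 20 CPM of Acan the 15-hour estimate was -1.83 (0.828). Exons of Col10a1 overlap those of Nt5dc1 on the opposite strand.

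**Figure D4:**
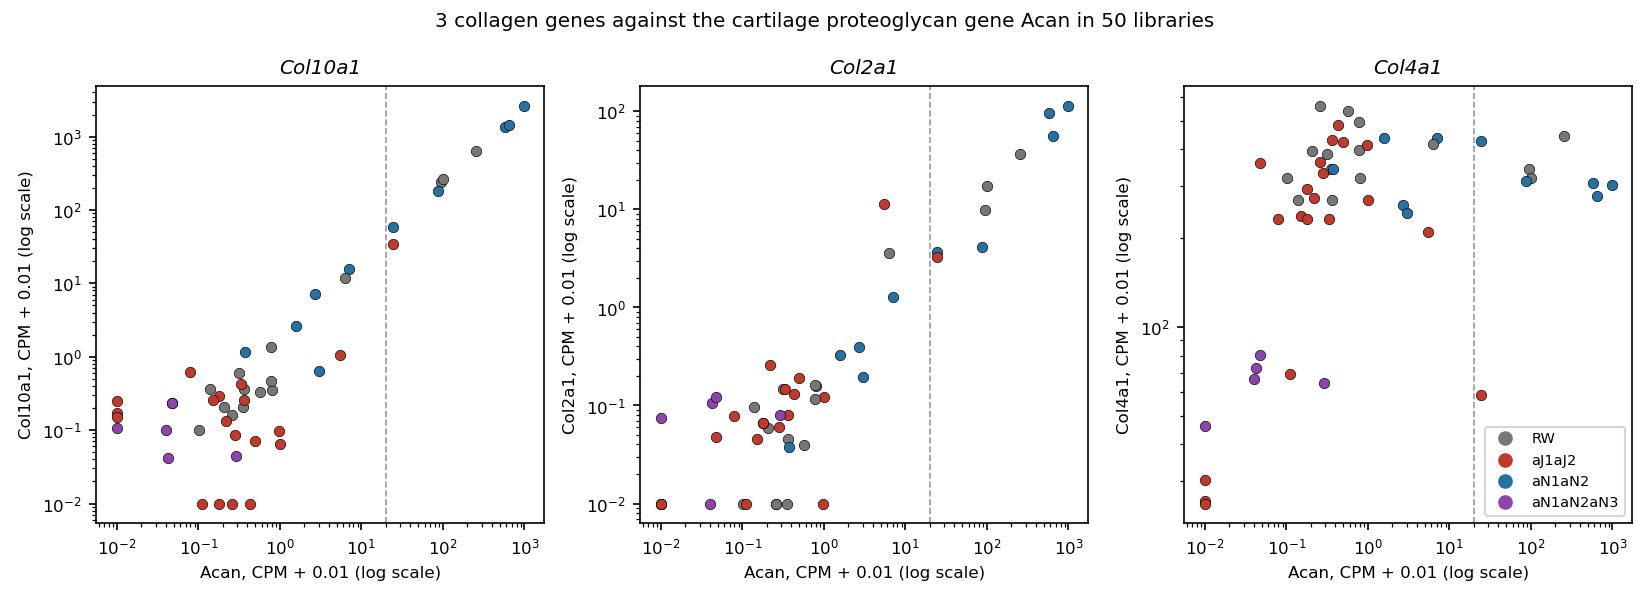
Col10a1, Col2a1 and Col4a1 (y axes, CPM + 0.01, log scale) against Acan (x axis, CPM + 0.01, log scale) in the 50 libraries, coloured by antibody; the dashed line marks 20 CPM. The 9 libraries right of the line hold the 9 highest Col10a1 values, 34.2 CPM or more.

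Of the genes that fold and modify collagen chains, Serpinh1 and P4ha1 rose at 15 hours under aN1aN2 and fell at 5 days under aJ1aJ2. Serpinh1, which encodes the collagen chaperone HSP47, had 128, 128, 107, 98.8 and 136 CPM in RW and 195, 251, 222, 209 and 239 in aN1aN2 at 15 hours, without overlap. It rose by 0.90 ± 0.13 on the log2 scale (edgeR adjusted p = 0.00386). P4ha1, a catalytic subunit of prolyl 4-hydroxylase, had 60.2, 55, 58.1, 49.4 and 69 in RW and 102, 91.7, 112, 68.3 and 114 in aN1aN2 and rose by 0.74 ± 0.14 (edgeR adjusted p = 0.0172). These were the 2 of 34 tested genes of the collagen enzyme list called there (1.68% of all genes were). Without the libraries over 20 CPM of Acan the estimates were 0.96 for Serpinh1 and 0.70 for P4ha1, close to those with all libraries, and with fewer libraries neither was called (edgeR adjusted p = 0.152 and 0.389). Apart from that, P4ha1 was lost without RW replicate 4 (0.0545).

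At 5 days both fell under aJ1aJ2. Serpinh1 had 172, 149, 223, 129.9 and 160.3 CPM in RW and 85.5, 60.8, 65.8, 71.6 and 58.2 in aJ1aJ2, with every aJ1aJ2 library below every RW library, at -1.30 ± 0.17 (edgeR adjusted p = 0.0097). P4ha1 had 95.2, 93.6, 142, 66.6 and 77.4 in RW and 52.1, 44, 48.4, 45.6 and 38.5 in aJ1aJ2, at -1.06 ± 0.19 (edgeR adjusted p = 0.0431), also without overlap. They were the 2 called of 33 enzyme genes (0.179% of all genes), of which 28 were lower (median -0.36). Serpinh1 was lost with the replicate block (edgeR adjusted p = 0.0647) and the 2 groups alone (0.0626). P4ha1 was called in 5 of 12 other settings, and log2(FPKM + 1) gave -0.56 (limma adjusted p = 0.074). Serpinh1 was lost without aJ1aJ2 replicate 2 (edgeR adjusted p = 0.0535), and P4ha1 stayed called in 4 of the 15 fits that left out 1 library. P4ha1 was lost without any 1 aJ1aJ2 library, RW replicates 1, 2 or 5 or aN1aN2 replicates 2, 3 or 5, with edgeR adjusted p-values up to 0.154.

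The log2 effect of aN1aN2 on Serpinh1 at 5 days less that at 15 hours was -1.98 ± 0.21 (edgeR adjusted p = 8.84e-07) and on P4ha1 -1.58 ± 0.20 (edgeR adjusted p = 7.93e-06). For aJ1aJ2 the same differences were -1.22 ± 0.21 and -1.16 ± 0.20 (edgeR adjusted p = 0.00289 for both). Both comparisons use the same RW libraries. The aN1aN2 differences contain the 15-hour comparison, so processing set and antibody cannot be told apart in them either. In all aJ1aJ2 differences between times, time and processing set cannot be told apart. The lysyl hydroxylase Plod1 (-0.68), the export receptor Mia3 (-0.59) and the collagenase Mmp13 (-5.41) also differed between times for aN1aN2 (edgeR adjusted p = 0.00208, 0.0385 and 0.0411). Of the 40 fits that left out 1 library, Mia3 stayed called in 27 and Mmp13 in 29. Mia3 was lost without RW replicates 1 to 4 or aN1aN2 replicate 5 at 15 hours, or RW replicates 1 to 3, aJ1aJ2 replicate 3 or aN1aN2 replicates 2 to 5 at 5 days (edgeR adjusted p up to 0.101). Mmp13 was lost without RW replicates 1 to 4 or aN1aN2 replicates 2 or 5 at 15 hours, or RW replicate 3 or aN1aN2 replicates 2 to 5 at 5 days. The Mmp13 estimate was -2.17 without that RW replicate 3 and -3.69 without aN1aN2 replicate 2 at 15 hours (edgeR adjusted p = 0.342 and 0.155). Mmp13 was called in 3 of 9 other settings, and voom with quality weights gave -0.69 (limma adjusted p = 0.612). Mia3 was called in 6 of 9 and was lost with RLE scaling, no filter and without the low-Tg libraries (edgeR adjusted p = 0.0628, 0.102 and 0.0565). The aJ1aJ2 effect at 7 days less that at 5 days was 1.18 ± 0.21 for Serpinh1, 1.01 ± 0.20 for P4ha1 and 1.02 ± 0.24 for Pcolce (edgeR adjusted p = 0.00527, 0.0115 and 0.0344). Pcolce stayed called in 27 of the 40 fits and was lost without RW replicates 1, 2 or 4 or any 1 aJ1aJ2 library at 7 days, or RW replicates 1 or 3 or aJ1aJ2 replicates 1, 2 or 5 at 5 days (edgeR adjusted p up to 0.0773). It was also lost with no filter, the replicate block and without the low-Tg libraries (0.0703, 0.0583 and 0.0595). No enzyme gene was called for aJ1aJ2 at 15 hours, for aN1aN2 at 5 days or at 7 days in the first set. P4hb, the protein disulfide isomerase in prolyl hydroxylase, gave -0.08 ± 0.22, -0.46 ± 0.32 and -0.29 ± 0.20 in those 3 comparisons. Timp3 and Timp2, inhibitors of the proteases that cut collagen, gave 0.27 ± 0.51 and -0.01 ± 0.14 for aJ1aJ2 at 5 days. In no comparison with RW was a gene of the degradation list (10 or 11 tested) or the other matrix list (36 or 35 tested) called. Sparc, a collagen-binding glycoprotein, gave -0.78 ± 0.28 for aJ1aJ2 at 5 days (edgeR adjusted p = 0.282), with every aJ1aJ2 library below every RW library. The proteoglycan Dcn gave -0.09 ± 0.32 there (edgeR adjusted p = 0.92), with overlapping groups.

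In the second set 6 of 32 enzyme genes fell and 3 rose, against 10.4% and 9.19% of all genes, so the share that rose was near that of all genes. The lysyl oxidases Loxl2 (-2.27 ± 0.50) and Loxl1 (-1.44 ± 0.39) cross-link collagen, and the enhancers Pcolce (-2.04 ± 0.35) and Pcolce2 (-1.64 ± 0.35) aid procollagen trimming; all 4 fell (edgeR adjusted p = 0.0104, 0.0233, 0.0034 and 0.00901). Serpinh1, named here after its value was seen, fell as well (-1.34 ± 0.23, edgeR adjusted p = 0.00327). Loxl1 was lost without aN1aN2aN3 replicates 3, 4 or 5, and without the high-muscle aJ1aJ2 libraries Loxl1 gave -0.56 (edgeR adjusted p = 0.0853) and Loxl2 -1.33 (0.022). Of 10 collagen degradation genes 3 fell and 2 rose, among them the gelatinase Mmp9 (-2.25) and the fibroblast protease Fap (-1.88), which fell, and the inhibitor Timp3 (0.94), which rose. Mmp9 gave -1.19 without the high-muscle libraries (edgeR adjusted p = 0.0527). Timp1, another inhibitor, fell (-1.01), and was lost without aN1aN2aN3 replicates 2 or 4 or aJ1aJ2 replicates 1, 2 or 3. Of 34 other matrix genes 4 fell and 4 rose, near the shares of all genes. Among them the proteoglycan Lum (-2.59) and microfibril gene Mfap4 (-1.84) fell, and the basement membrane genes Lama5 (2.19) and Agrn (1.77) rose. Ddr2, a receptor for fibrillar collagen, was the 1 of 9 receptor genes called and fell (-1.75 ± 0.34, edgeR adjusted p = 0.00571). It was named after its value was seen.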

How the data were processed

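Thyroid RNA was sequenced as 50 bp single-end reads, per the labels' protocols. The submitters' processing notes name GSNAP and limma without a role, and no source used here gives the counter, genome build or strand setting. The authors deposited raw counts per gene for 50 libraries and FPKM. The deposited FPKM values were scaled within 2 blocks of libraries. Their gene length equals the gene span, introns included, within 1% for 84.1% of 6252 genes checked. FPKM therefore served only for alternative fits and for choosing the member named for each class. That choice took Col10a1 for the short-chain class, though in RW libraries Col8a1 had the higher median per kilobase of exon (2.47 against 0.112 CPM). Symbols were matched for 52403 of 52636 genes.

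Counts were filtered (edgeR filterByExpr, minimum count 10, minimum total 15), scaled by TMM and tested with edgeR 4.0.16 quasi-likelihood in R 4.3.3, 1 fit per time or set, with Benjamini-Hochberg adjustment over all genes and a threshold of 0.05. Differences between times came from 1 fit of the 40 libraries outside the second set. CPM are counts scaled by the TMM library size. The test was checked on simulated data. Total counts per library (15271242 to 52835846) limit the precision for genes with low counts. Standard errors are those of the fitted model and include the spread between libraries.

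Members called were named, as were, in the second set, up to 3 called per class with the largest fold change, and the member with the highest mean FPKM of each class. Col1a1, Col1a2, Col6a2 and Col15a1 at times where they were not called were added after their values were seen. From the collagen enzyme, degradation and other matrix lists up to 4 called genes were named, otherwise the 2 with the highest CPM. The members and lists were chosen with earlier results of these data known. Alternatives were RLE scaling, no filter, DESeq2 1.42.0, voom with quality weights and limma-trend on log2(FPKM + 0.1) or log2(FPKM + 1) (limma 3.58.1), a replicate block, a muscle covariate, fits of the 2 groups alone and leaving out each library. Chosen after seeing the data were a cartilage covariate and leaving out libraries high in Acan, low in Tg or high in muscle.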

Additional observations from a re-analysis of the deposited data

Results flagged for a closer look

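The aJ1aJ2 effect on Col6a3 differed between times by the interaction test: by -1.34 between 5 days and 15 hours and by 1.68 between 7 and 5 days (log2 scale). Time and processing set cannot be told apart in these differences.

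Sets of unlogged values were examined by Dixon's criterion at 95%, and the sets share libraries, so no chance rate is given. A library stood apart from the other 4 of its group in 31 of 170 such sets (18.2%). RW replicate 3 at 5 days, low in Tg, accounted for 9 of them: it was high in Col3a1 (923 CPM), Col6a1 (250.2), Col6a3 (214), Col5a2 (131) and Col7a1 (58.9), and low in Col18a1 (32.7), Col12a1 (29.5), Col4a4 (8.94) and Col13a1 (1.68). The aJ1aJ2 replicate 5 of the second set was high in Col3a1 (182), Col18a1 (44.2), Col5a2 (24.4), Col13a1 (6.36) and the collagen share of counts (0.108%). The aN1aN2 replicate 1 at 5 days was high in Col10a1 (1429), Col27a1 (198), Col6a3 (134) and the collagen share (0.361%). The aJ1aJ2 replicate 3 at 5 days stood apart in Col7a1 (20.9), Col28a1 (19.6) and Col10a1 (1.06), and aJ1aJ2 replicate 4 of the second set in Col10a1 (34.2), Col27a1 (25.2) and Col7a1 (16.2). RW replicate 4 at 5 days stood apart in Col10a1 (629) and Col27a1 (56.1). Single values were Col3a1 in RW replicate 5 at 15 hours (480.5), Col7a1 in aJ1aJ2 replicate 2 at 7 days (65.5), and Col28a1 in aJ1aJ2 replicate 3 (19.7) and aN1aN2 replicate 2 (9.74) at 15 hours and RW replicate 4 at 7 days (0.925).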

How the results depend on the processing

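Counts of called collagen genes moved with the test. The shares of all genes called in each setting are not given here, so the counts describe these members only. DESeq2 called 3 for aJ1aJ2 at 15 hours (0 by edgeR), 6 at 5 days (1), 3 for aN1aN2 at 5 days (0), 1 for aN1aN2 against aJ1aJ2 (0), 1 for aJ1aJ2 at 7 days (0) and 18 in the second set (9). Voom with quality weights called 15, 9, 1, 3 and 20 in the last 5 of these. The muscle covariate gave 11 for aJ1aJ2 and 7 for aN1aN2 at 5 days and 15 in the second set. For aJ1aJ2 at 5 days the replicate block, the cartilage covariate, the 2 groups alone and log2(FPKM + 1) gave 0, and omitting low-Tg libraries 2. In the second set the cartilage covariate gave 6, log2(FPKM + 0.1) 5 and log2(FPKM + 1) 4 members called. The FPKM fits did not hold Col5a2, Col6a3, Col14a1, Col15a1 or Col27a1, so their counts cover a different set of members. Of the time differences (1, 0 and 1 called), DESeq2 called 2, 1 and 3, voom 6, 2 and 8, the muscle covariate 3 each; omitting high-Acan libraries gave 2 for the first, omitting low-Tg libraries 2 and 1 for the first and second, and RLE 1 for the second. Leaving out 1 library gave 0 to 1 for aJ1aJ2 at 5 days, 6 to 12 in the second set, and 0 to 2, 0 to 2 and 1 for the time differences.

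FPKM fits were not run for aN1aN2 at 15 hours or the time differences, whose libraries differ in scaling, and DESeq2 gave no adjusted p for Col27a1 in the second set. Deviations of same-numbered libraries had correlations of -0.646 to 0.756. Pairs with unlike numbers were not examined, so whether replicate numbers pair the libraries cannot be judged. The replicate block gave 11 called in the second set. Of 1008 alternative values of single genes, 869 kept direction and side of the threshold, 54 gained the threshold, 47 lost it and 38 changed sign. The cause was not tested. None of the 38 had been called. Those for Col10a1 were -0.12 (aN1aN2, 15 hours, cartilage covariate) and, at 5 days, -0.43 (muscle), -0.78 (cartilage) and -0.11 (without high-Acan libraries). For aN1aN2 at 15 hours Col3a1 gave -0.0503 (voom), -0.0244 (replicate block), -0.0903 (muscle), -0.20 (cartilage) and -0.03 (without high-Acan), and Col6a1 -0.0522 (voom), -0.041 (muscle), -0.21 (cartilage) and -0.0149 (without high-Acan). For aJ1aJ2 at 15 hours voom gave 0.0086 for Col4a1, 0.0315 for Col18a1 and 0.017 for Col7a1. Col7a1 gave 0.28 (aJ1aJ2) and 0.36 (aN1aN2) at 15 hours without high-Acan libraries. For aJ1aJ2 at 5 days it gave 0.62 (voom, limma adjusted p = 0.0411), 0.0167 (FPKM + 0.1) and 0.57 (without low-Tg). For aN1aN2 at 5 days it gave 0.73 (voom, limma adjusted p = 0.0373), 0.55 (replicate block), 0.38 (cartilage), 0.25 (FPKM + 0.1), 0.0099 (FPKM + 1) and 1.34 (without low-Tg). At 7 days it gave -0.0425 (voom) and -0.41 (cartilage). Col12a1 gave 0.0485 (replicate block) and 0.32 (muscle) for aN1aN2 at 5 days, and 0.0741 (voom), 0.0773 (muscle) and 0.26 (cartilage) at 7 days. Col13a1 gave 0.19 (aN1aN2, 5 days, muscle) and 0.18 (7 days, cartilage), Col28a1 -0.12 (aN1aN2, 5 days, muscle) and Col6a3 0.0015 (7 days, cartilage).

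Leaving out 1 library changed the sign of 33 of 1620 values. Their ranges were -0.20 to 0.19 (Col18a1), -0.12 to 0.092 (Col4a1), -0.48 to 0.0613 (Col7a1) and -0.0428 to 1.72 (Col28a1) for aJ1aJ2 at 15 hours; -0.21 to 0.19 (Col3a1) and -0.11 to 0.16 (Col6a1) for aN1aN2 at 15 hours; -0.97 to 0.94 (Col7a1) for aJ1aJ2 at 5 days. They were -1.42 to 6.66 (Col10a1), -0.73 to 1.34 (Col7a1) and -0.33 to 0.0062 (Col12a1) for aN1aN2 at 5 days, -0.0045 to 1.05 (Col7a1), -0.13 to 0.12 (Col12a1) and -0.16 to 0.0304 (Col6a3) at 7 days, and -0.19 to 1.23 (Col7a1) in the second set. The family median stayed below 0 in all 27 settings for aJ1aJ2 at 5 days (-0.78 to -0.16). In the second set it was 0.20 and 0.03 with the FPKM settings, taken over a different set of members. The filter there, FPKM of at least 0.1 in 5 libraries, left out Col5a2, Col6a3, Col14a1, Col15a1 and Col27a1, which edgeR had called lower. Basement membrane genes were higher in 6 of 6 in every setting.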
